A study of Rattus norvegicus with 6 samples.

Results

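Transcripts that mark endothelial cells, the lining of blood vessels, were followed in sorted rat pancreatic β-cells. The 10 markers were *Vwf*, *Cdh5*, *Pecam1*, *Ptprb*, *Plvap*, *Esm1*, *Kdr*, *Flt1*, *Tek* and *Eng*. They were chosen by name, as the non-control probes whose gene name in the array files was that of a marker, and all were on the array. Together they had 13 probes of 45598, and were 10 of the 17961 genes named on the array. Of the 10 markers, 7 had 1 probe and 3 (*Vwf*, *Ptprb* and *Flt1*) had 2.

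Both groups came from islets of young adult male Wistar rats, with 4 rats pooled in each of 3 islet preparations. Islets were cultured overnight in low glucose with EdU, a thymidine analogue that cells take up as they copy their DNA, then dispersed, loaded with the zinc dye Newport Green, fixed and permeabilised. Cells that were large, granular and bright for the dye were taken as β-cells and divided into replicating (EdU-positive) and quiescent (EdU-negative) cells, so both groups shared the EdU, the dye and the fixation. The paper describes far fewer cells, and less RNA in total, in replicating than in quiescent fractions. Any effect of RNA input before amplification therefore cannot be told apart from that of group. Each preparation gave 1 array of each group, and the comparison asked how the expression of replicating and quiescent β-cells differed.

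Islets hold a dense network of fenestrated capillaries. β-cells secrete VEGF-A, which binds the receptors KDR and FLT1 on the neighbouring endothelium, while angiopoietins act on TEK and members of the TGFβ and BMP family signal through endoglin, the product of *Eng*. Endothelial cells join to each other through VE-cadherin (*Cdh5*) and PECAM1, store von Willebrand factor for clotting, and close their fenestrae with a diaphragm made of PLVAP. Dispersed islets contain such cells, and the sort was made on size, granularity and dye and on no endothelial antigen. In RNA from a bulk fraction, fewer cells of a type and less RNA per cell cannot be told apart.

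The array reads each marker through 60-base probes whose sequences are in the array files, with positions on the rat build rn4. They are given as designed, 5′ to 3′, and which exon or untranslated region each lies in was not analysed here. The first set is shown because 2 probes of one gene gave ratios of opposite sign. These are the *Vwf* probes at chr4:161759938-161759997 and chr4:161854554-161854613, whole, and the *Flt1* probes at chr12:7957094-7957153, whole, and chr12:8035639-8035698, its first 30 bases. No base is capitalised in this set.
Vwf A_43_P21694: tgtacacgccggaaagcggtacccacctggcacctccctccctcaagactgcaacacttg
Vwf A_64_P114913: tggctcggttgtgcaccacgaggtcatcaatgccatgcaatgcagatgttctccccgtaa
Flt1 A_64_P201730: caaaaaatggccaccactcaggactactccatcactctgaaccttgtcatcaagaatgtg
Flt1 A_43_P12015: agatagagccacgtgaggaaaacactattg

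The second set shows what 4 markers shared that the choice did not use. The probes of *Pecam1* (chr10:96056220-96056278), *Plvap* (chr16:18668570-18668629), *Esm1* (chr2:44634679-44634738) and *Tek* (chr5:115196108-115196167) held the letters AATAAA, the common form of the signal that precedes the end of an mRNA. A window of 30 bases of each is given, with those letters in capitals. On the strand of the probe, AATAAA occurred in 9.04% of the 45598 probes and in the probe of 12.1% of genes. The other strand's form, TTTATT, occurred in 3.53% of probes and in the *Esm1* probe alone among the 13. A match describes the letters of the probe, not a site in use.
Pecam1: ggagttgtattaAATAAAacggatttttac
Plvap: tcactggcacgtAATAAAtatcatgaaagt
Esm1: agtgtattgttgttcAATAAAaatggcaca
Tek: cctcctgtagatgAATAAAtgtcttgtcta

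The third set shows *Cdh5* (chr19:779665-779724), which had the lowest unadjusted p of the 10, and *Eng* (unmapped in the files), whose ratio was above 0 in all 3 preparations. Both probes held 55% G and C.
Cdh5: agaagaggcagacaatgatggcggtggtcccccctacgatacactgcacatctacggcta
Eng: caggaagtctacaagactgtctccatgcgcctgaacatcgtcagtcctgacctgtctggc

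The arrays did not all perform alike. The share of probes well above background ranged from 80.7% to 87.3% on the replicating arrays and was 96.4%, 98.4% and 85.6% on quiescent arrays 1, 2 and 3. Quiescent array 2 also had 1583 spots marked as outliers, against 252 to 299 on the other arrays, and stood apart. All 8 cell division genes were higher in replicating cells by limma (log2 ratio of at least 1, unadjusted p no more than 0.05), beside 5.63% of all genes. Most of the 8 are among the genes the paper lists as most raised on these same arrays. The count is therefore only a check of the labels. Among the 8 is *Mki67*, the gene of the proliferation antigen Ki-67. By its brightest probe it had log2 values of 12.51, 12.86 and 12.28 in replicating and of 10.25, 12.23 and 8.20 in quiescent samples 1, 2 and 3. Its 3 other probes had quiescent sample 2 at 6.18, 8.81 and 8.48, with log2 ratios in preparation 2 of 3.06, 3.12 and 2.61 against 0.63 by the brightest. *Ins1*, an insulin gene, had log2 values between 15.92 and 17.20 on the 6 arrays and a log2 ratio of 0.25 ± 0.34 (SE, n = 3 pairs; unadjusted p = 0.498 by limma). *Ins2*, the other insulin gene, had a log2 ratio of 0.42 ± 0.34 (unadjusted p = 0.269 by limma), whereas the paper's qPCR found it lower in replicating cells.

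Array signal of all 10 markers was detected in both groups. Each was well above background on all 6 arrays, as were 82.8% of all genes, so detection did not set the markers apart. Their log2 values lay above the 95th percentile of the negative control spots of the same array by 1.46 (*Eng*, quiescent sample 2) to 7.11 (*Cdh5*, quiescent sample 2). By qPCR of its sorted β-cell fractions, however, the paper found *Pecam1* undetectable and took that as absence of endothelial cells. It reported the same for amylase and keratin 20, markers of acinar and duct cells, and also judged purity by insulin and c-peptide staining. On these arrays *Amy2a3* (8.91 to 13.47) and *Krt20* (7.91 to 12.11) were likewise well above background on all 6, so the mismatch was not particular to *Pecam1*. The difference between array and qPCR was not tested.

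None of the 10 markers passed the test of a difference between replicating and quiescent cells. In limma, paired within preparation, 0 of 10 had an adjusted p under 0.05 (0.475 to 0.909), where 0% of all genes did. At the study's looser threshold, an unadjusted p of at most 0.05 with a log2 ratio of at least 1 in size, 0 of 10 were higher and 0 of 10 lower, beside 5.63% and 2.76% of all genes (4.44% and 4.18% of all probes). An unadjusted p of at most 0.05 was reached by 0 of 10, the lowest being 0.0613, while 9.6% of all probes reached it. The design left room for sizeable differences: the 95% intervals of the log2 ratio extended 0.87 to 1.89 to either side. By the brightest probe of each, arrays of the 2 groups overlapped for 10 of 10 markers. In 10.6% of genes all replicating arrays were above and in 6.23% all were below the quiescent ones. The groups did not overlap by the dimmer probes of *Flt1* (replicating above) and *Ptprb* (replicating below).

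The ratios of the 10 were split by sign. The log2 ratio, replicating over quiescent, ran from -0.99 (*Ptprb*) to 1.33 (*Plvap*), and 5 of 10 were above 0, as were 49.9% of all genes. The median was 0.09, beside 0.00 over all genes. By preparation the median was 0.23, 0.48 and -0.21 in preparations 1, 2 and 3, beside 0.08, 0.07 and -0.05 over all genes.

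**Figure D1:**
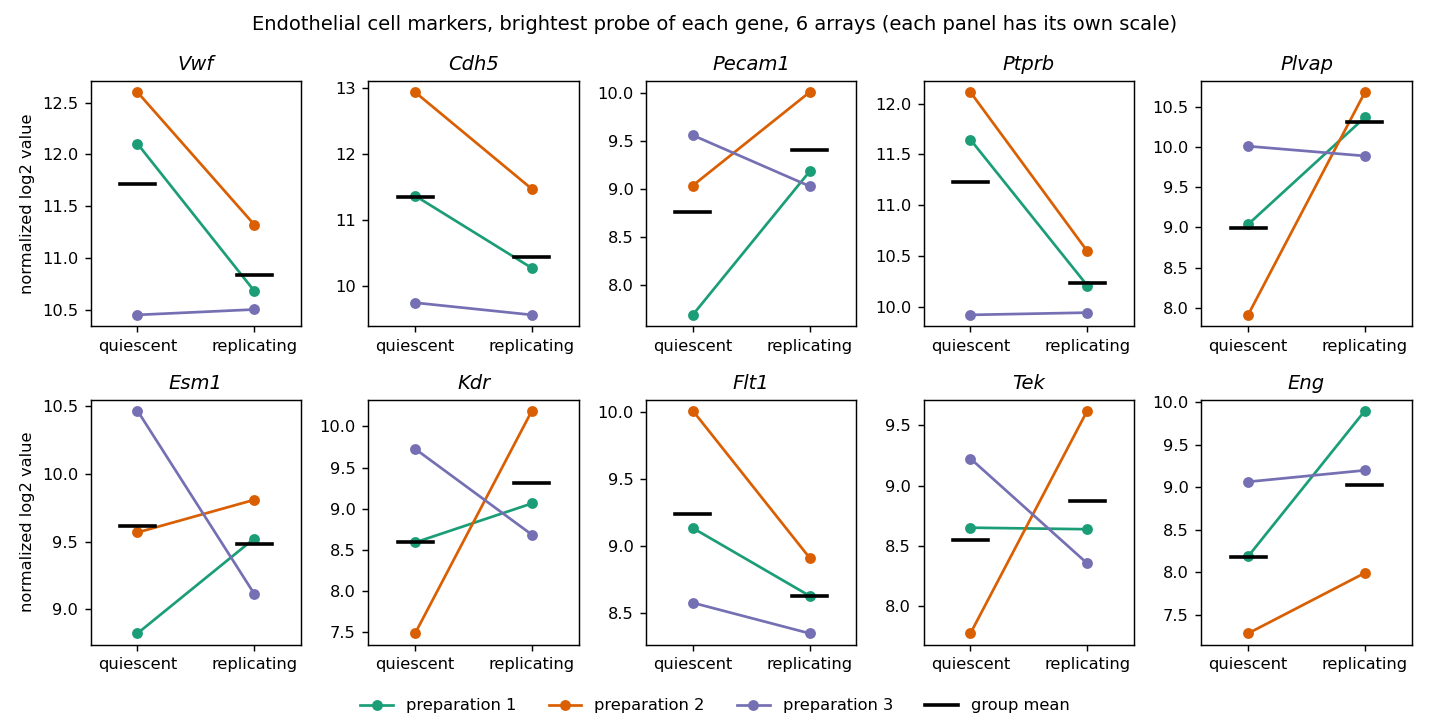
Normalized log2 value of the brightest probe of each endothelial marker (vertical axis, its own scale in each panel) in quiescent and replicating β-cells; lines join the 2 arrays of an islet preparation and black bars are group means. In preparations 1 and 2 the lines of *Vwf*, *Cdh5*, *Ptprb* and *Flt1* run down and those of *Pecam1*, *Plvap*, *Esm1*, *Kdr* and *Eng* run up, and every panel has quiescent and replicating values that overlap.

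The junction genes are given first. *Cdh5*, which encodes VE-cadherin, had log2 values of 10.27, 11.47 and 9.56 in replicating and of 11.37, 12.94 and 9.75 in quiescent samples 1, 2 and 3. Its quiescent value was the higher in each preparation, but the difference in preparation 3 was -0.18 against -1.10 and -1.47 in the others. The fit gave -0.91 ± 0.38 (SE, n = 3 pairs; 95% interval -1.89 to 0.06; adjusted p = 0.475 by limma). *Ptprb* encodes VE-PTP, a phosphatase that binds VE-cadherin and TEK. Its values were 10.21, 10.55 and 9.94 in replicating and 11.65, 12.11 and 9.92 in quiescent samples. Quiescent samples 1 and 2 were above all others, and sample 3 was level with its replicating partner, so that the log2 ratios were -1.44, -1.57 and 0.02. The fit gave -0.99 ± 0.44 (95% interval -2.11 to 0.12; adjusted p = 0.475 by limma).

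*Pecam1*, the adhesion molecule CD31 of endothelium, platelets and leukocytes, had values of 9.18, 10.01 and 9.03 in replicating and of 7.69, 9.04 and 9.56 in quiescent samples. Here the replicating sample was the higher in preparations 1 and 2 and the lower in preparation 3, with log2 ratios of 1.49, 0.97 and -0.53. The fit gave 0.64 ± 0.48 (95% interval -0.59 to 1.87; adjusted p = 0.544 by limma).

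Of the products stored, secreted or set in fenestrae, *Vwf* had values of 10.68, 11.32 and 10.50 in replicating and of 12.10, 12.60 and 10.45 in quiescent samples. Quiescent samples 1 and 2 were again the highest, and the log2 ratios were -1.42, -1.28 and 0.05, with a fit of -0.88 ± 0.42 (95% interval -1.95 to 0.19). *Plvap* was 10.37, 10.68 and 9.89 in replicating and 9.04, 7.91 and 10.01 in quiescent samples, with log2 ratios of 1.33, 2.77 and -0.12 and a fit of 1.33 ± 0.60 (95% interval -0.21 to 2.86). The group means of *Plvap* differed most of the 10, yet quiescent sample 3 lay above replicating sample 3. *Esm1*, the secreted proteoglycan endocan of vascular endothelium, was 9.52, 9.81 and 9.11 in replicating and 8.82, 9.57 and 10.47 in quiescent samples. Its highest and its lowest value were both quiescent, and the fit was -0.14 ± 0.49 (95% interval -1.39 to 1.12).

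The sign of 2 receptor genes changed between preparations. *Kdr*, the main signalling receptor for VEGF-A, was 9.07, 10.19 and 8.69 in replicating and 8.59, 7.49 and 9.73 in quiescent samples. The log2 ratios were 0.47, 2.70 and -1.04, and the fit of 0.71 ± 0.74 had the widest interval of the 10 markers (-1.18 to 2.60). *Tek*, the angiopoietin receptor TIE2, had a similar pattern, with 8.64, 9.62 and 8.35 in replicating and 8.65, 7.77 and 9.22 in quiescent samples. Its log2 ratios were -0.01, 1.85 and -0.87 and its fit was 0.32 ± 0.58, below 0 (-0.19) with scaling to the 75th percentile in place of quantile normalization. For both receptors the highest value was that of replicating sample 2 and the lowest that of quiescent sample 2.

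*Flt1*, a VEGF receptor also made in a soluble form that traps the ligand, was 8.63, 8.91 and 8.35 in replicating and 9.13, 10.01 and 8.58 in quiescent samples by the probe that stood for it. The replicating sample was the lower in each preparation, with log2 ratios of -0.51, -1.10 and -0.23, and the fit was -0.61 ± 0.34 (95% interval -1.48 to 0.26). *Eng*, the TGFβ and BMP co-receptor endoglin, was 9.90, 7.99 and 9.20 in replicating and 8.19, 7.28 and 9.06 in quiescent samples. The replicating sample was the higher in each preparation, with log2 ratios of 1.72, 0.71 and 0.14, and the fit was 0.85 ± 0.42 (95% interval -0.21 to 1.92). Thus, by the brightest probes, 1 of 10 markers was higher and 2 of 10 (*Cdh5* and *Flt1*) were lower in replicating cells of every preparation. The shares of all genes were 17.6% and 18.6%.

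**Figure D2:**
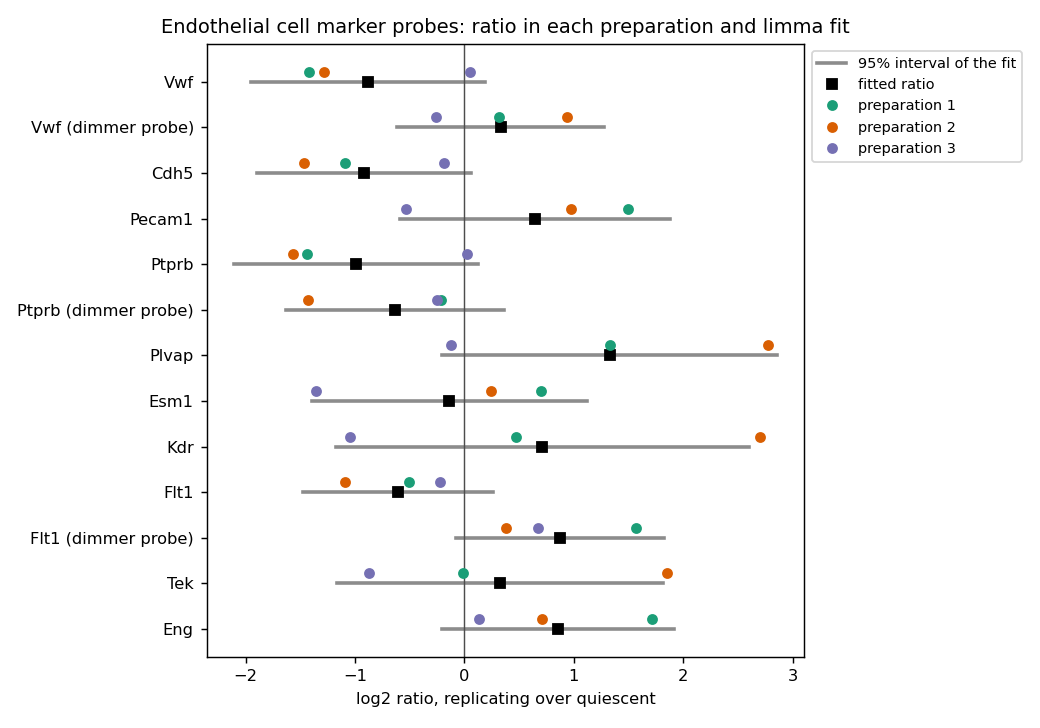
Log2 ratio of replicating over quiescent β-cells (horizontal axis) for the 13 probes of the 10 markers; coloured points are the 3 preparations, black squares the limma fit and grey bars its 95% interval. Every interval spans 0, and the points of preparation 3 lie nearer 0 than those of the other preparations for the brightest probes of *Vwf*, *Cdh5*, *Pecam1*, *Ptprb*, *Plvap*, *Flt1* and *Eng*.

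Preparation 3 decided whether any marker was called. In preparations 1 and 2, 6 and 7 of the 10 log2 ratios were 1 or more in size, beside 24.6% and 49.6% of all genes, while in preparation 3 it was 2 of 10 (*Esm1* and *Kdr*, both lower in replicating cells), beside 5.97%. Ratios were above 0 for 5, 6 and 3 of the 10 in preparations 1, 2 and 3. Without preparation 3, 2 of 10 markers passed the looser threshold as higher, *Plvap* (2.05, adjusted p = 0.166 by limma) and *Pecam1* (1.23, adjusted p = 0.193 by limma). Likewise 3 passed as lower, *Ptprb* (-1.50, adjusted p = 0.167 by limma), *Vwf* (-1.35, adjusted p = 0.176 by limma) and *Cdh5* (-1.28, adjusted p = 0.185 by limma). The background rose too, to 13.7% of all genes called higher and 10.2% lower, and with 2 pairs no marker had an adjusted p under 0.05. No marker passed the looser threshold without preparation 1 or without preparation 2.

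Quiescent sample 2, the array that stood apart, held an extreme value for most markers, as it did for most genes. It was the highest of the 6 arrays for 4 of 10 (*Vwf*, *Cdh5*, *Ptprb* and *Flt1*) and the lowest for 4 of 10 (*Plvap*, *Kdr*, *Tek* and *Eng*). Over all genes it was the highest for 32.6% and the lowest for 38.4%, so this did not set the markers apart. Without preparation 2 the log2 ratios of *Kdr* and *Tek* turned to -0.28 and -0.44, and the median of the 10 to -0.35. The part of that array in the spread of the markers was not tested beyond this.

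Probes of the same gene did not give the same ratio. For *Vwf*, the probe 94616 bases further along the gene in the direction of transcription had values of 6.97, 7.53 and 7.24 in replicating and of 6.66, 6.59 and 7.49 in quiescent samples. Its log2 ratios of 0.31, 0.94 and -0.26 had the opposite sign to those of the other probe in each preparation, and its fit was 0.33 ± 0.37 (unadjusted p = 0.411 by limma). For *Flt1*, the probe 78545 bases further along had values of 9.32, 8.41 and 8.85 in replicating and of 7.75, 8.03 and 8.18 in quiescent samples. All 3 replicating samples lay above all 3 quiescent ones by this probe, with log2 ratios of 1.56, 0.38 and 0.67 and a fit of 0.87 ± 0.37 (unadjusted p = 0.0653 by limma), whereas the other probe had them lower in each preparation. The soluble form of FLT1 ends before the kinase domain, and which transcript forms each probe reads was not analysed here.

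The direction of transcription was read from the order of the coordinates in the files, which matched the strand of the RefSeq promoter table (GRCr8) for 95% of 17699 probes. For the second *Ptprb* probe, 2690 bases further along, the values were 6.14, 5.89 and 6.23 in replicating and 6.36, 7.32 and 6.49 in quiescent samples. All replicating values lay below all quiescent ones, as in 6.23% of genes by their brightest probe. The probe was well above background on 0 of 3 replicating and 2 of 3 quiescent arrays, so its level in replicating cells is only a limit. Set against that limit, the quiescent mean was 1.28-fold higher. This mean includes quiescent array 3, where the probe was not well above background, so 1.28-fold is not a strict lower bound. The difference did not pass (95% interval of the log2 ratio -1.63 to 0.36, adjusted p = 0.501 by limma), and quiescent sample 2 was the highest array. The 1.28-fold value sets the mean of the 3 quiescent arrays against a mean over replicating arrays. On each, the higher of the probe's own value and the lowest signal well above background was taken.

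The ratio of the 3′ probe minus that of the 5′ probe was 2.07, 1.48 and 0.90 for *Flt1* and 1.73, 2.22 and -0.31 for *Vwf* on the log2 scale. Over the 3581 genes with such probes, the median of this difference was 0.04, 0.21 and -0.20 in preparations 1, 2 and 3 and 0.02 in the fit. The middle 50% of these genes spanned -0.50 to 0.61 in preparation 1, -0.95 to 1.60 in preparation 2 and -0.59 to 0.12 in preparation 3. *Vwf* lay above that range in preparations 1 and 2, and *Flt1* in preparations 1 and 3.

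**Figure D3:**
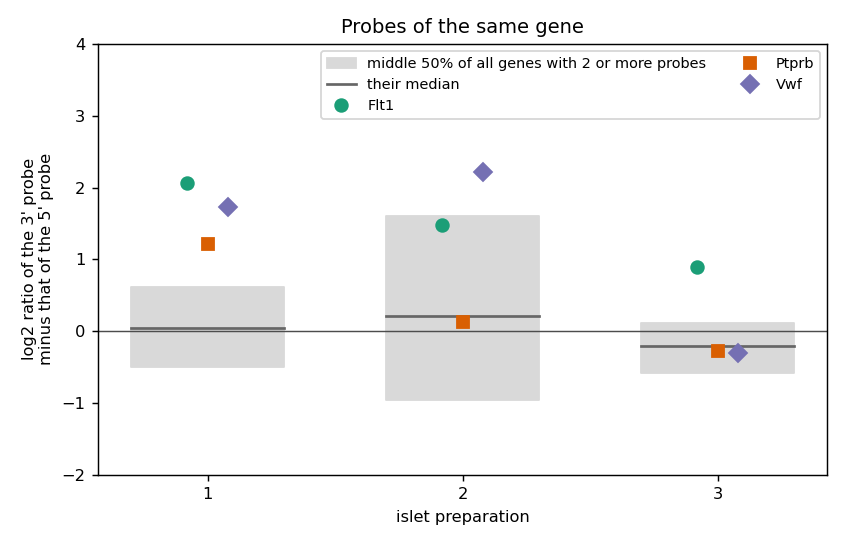
Difference between the log2 ratios of 2 probes of the same gene, 3′ probe minus 5′ probe (vertical axis), in each islet preparation for *Flt1*, *Vwf* and *Ptprb*; grey boxes span the middle 50% of all genes with 2 or more probes and grey lines are their medians. *Flt1* lies above 0 in every preparation and *Vwf* in preparations 1 and 2.

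Markers read through the letters AATAAA and the others can be set side by side. The log2 ratios of *Pecam1*, *Plvap* and *Esm1* were above 0 in preparations 1 and 2 and those of all 4 such markers were below 0 in preparation 3. Markers without the letters shared this: *Kdr* had the same signs, *Eng* was above 0 in preparations 1 and 2, and 7 of all 10 markers were below 0 in preparation 3. Over the 2167 genes with these letters in their probe the median log2 ratio was 0.20, 0.15 and -0.13 in preparations 1, 2 and 3, and over the other genes it was 0.06, 0.06 and -0.04. Their probes also differed in base composition, with a median of 38.3% G and C against 45%, and the part of either in the ratios of the markers was not tested.

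Other genes of the endothelium were also split by sign, with 15 of 29 log2 ratios above 0. Of these 29 on the array, 1 was called higher and 0 lower at the looser threshold, beside 5.63% and 2.76% of all genes. Their median log2 ratio was 0.03, and 18 were well above background on all 6 arrays. The gene called was *Thbd*, which encodes the anticoagulant receptor thrombomodulin. It was 9.63, 9.95 and 9.69 in replicating and 7.51, 6.22 and 9.40 in quiescent samples, with no overlap between the groups and a fit of 2.05 ± 0.69 (adjusted p = 0.475 by limma). A second *Thbd* probe, with no value on quiescent array 2, gave 0.80. Without preparation 1 or 2 the call was lost (log2 ratio 2.01 and 1.21, adjusted p = 0.966 and 0.928 by limma). *Tie1*, an orphan receptor that partners TEK, had a log2 ratio of 0.10 (-0.36 with scaling to the 75th percentile), the tight junction gene *Cldn5* one of -0.56 and the sialomucin gene *Emcn* one of 0.36. *Tie1* was well above background on 2 of 3 quiescent and *Emcn* on 2 of 3 replicating arrays, so these values rest in part on dim signal. The log2 of the summed linear level of the markers was 13.13, 13.68 and 12.75 in replicating samples 1, 2 and 3. In quiescent samples it was 13.67, 14.40 and 13.10, the higher in each preparation. Such a sum is weighted to the brightest markers, among them *Vwf*, *Cdh5* and *Ptprb*, and was not tested. That of the further genes was 13.15, 13.60 and 12.99 in replicating and 13.02, 13.55 and 13.2 in quiescent samples, with no common direction.

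Among 49 genes of the pathways these receptors serve, 6 were called higher and 0 lower at the looser threshold, where 5.63% and 2.76% of all genes were, with a median log2 ratio of 0.45. The count of higher genes was 1 on Agilent's processed signal, where calls of higher over all probes fell from 2023 to 662. It was 15 without preparation 3, where 13.7% of all genes were called higher. Scaling to the 75th percentile gave 4 higher and 2 lower, with 1596 of all probes higher and 5862 lower. Of the 17 ligands, 1 was called, *Tgfb3*, with 7.74, 7.53 and 7.87 in replicating and 6.58, 6.45 and 6.91 in quiescent samples and a fit of 1.07 ± 0.30. *Vegfa* was 15.39, 15.57 and 15.35 in replicating and 15.04, 15.48 and 15.59 in quiescent samples. Its groups overlapped and the fit was 0.07 ± 0.32, with 0.19 and 0.21 by its other probes. The log2 ratios of *Vegfb* and *Vegfc*, ligands of FLT1 and of the lymphatic receptor FLT4, were -0.07 and 0.75.

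Of 13 further receptors, 2 were called higher. *Nrp1*, a co-receptor for VEGF-A and semaphorins that is not restricted to endothelium, was 10.95, 10.85 and 10.38 in replicating and 9.22, 8.79 and 9.48 in quiescent samples. All replicating samples were the higher, with a fit of 1.56 ± 0.37 (unadjusted p = 0.00774 by limma) and 1.98 by a second probe. *Notch1*, a receptor that patterns sprouting vessels among many tissues, had a fit of 1.53 ± 0.45. *Flt4* and *Nrp2*, which serve the lymphatic ligands, had log2 ratios of -0.63 and -1.43 that did not pass. By preparation *Nrp2* had -0.37, -4.97 and 1.05, with 11.97 in quiescent sample 2, and without preparation 2 its ratio was 0.34; its other probes gave 0.50 and -0.05.

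Of 19 genes of signalling and its targets, 3 were called higher, *Id1* (1.75 ± 0.64), *Id3* (1.92 ± 0.58) and *Smad7* (1.01 ± 0.39), all induced by BMP or TGFβ signals in many cell types. *Id1* was 6.15 and *Id3* 6.17 in quiescent sample 2, against 9.79 and 9.20 in quiescent sample 3. *Id2* had a log2 ratio of -0.18. Without preparation 1, 0 of the 49 pathway genes were called, at log2 ratios of 1.48 for *Nrp1*, 1.38 for *Notch1*, 1.79 for *Id1*, 1.86 for *Id3*, 1.02 for *Tgfb3* and 0.79 for *Smad7*. Calls over all probes then fell from 2023 higher and 1905 lower to 518 and 63. Each of the 6 genes had an adjusted p of 0.475 in limma.

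Markers of other cells that such a sort could hold are given beside these values. At the looser threshold 5.63% of all genes were called higher and 2.76% lower. Pericyte and smooth muscle (mural) genes had 0 of 10 called and a median log2 ratio of 0.14, with a log2 summed level of 12.02 to 12.27 in replicating and 11.73 to 13.29 in quiescent samples. Of the 9 mural genes with a value on every array, quiescent sample 2 was the highest for 6 and the lowest for 1, beside 32.6% and 38.4% of all genes and 4 each of the 10 endothelial markers. Platelet genes, of interest because platelets also carry *Vwf* and *Pecam1*, had 0 of 7 called and a median of -0.40, with a summed level of 10.47 to 10.56 in replicating and 10.63 to 11.98 in quiescent samples. Fibroblast and stellate cell genes had 5 of 12 called higher (*Col1a2*, *Col3a1*, *Col6a3*, *Mgp* and *Vim*) and a median of 1.26, with a summed level of 13.80 to 15.36 against 12.53 to 12.65. Macrophage and leukocyte genes had 4 of 12 called higher (*Cd68*, *Cd74*, *Cd14* and *C1qc*) and a median of 0.50, with a summed level of 13.23 to 13.62 against 12.47 to 13.84. Of their log2 ratios 10 of 12 were above 0, with *C1qa* at -0.83 and *Fcgr3a* at -0.52. On the processed signal the fibroblast and macrophage counts of higher genes were 3 and 0. With 75th percentile scaling of the normexp values they were 6 and 1. Without preparation 1 they were 4 and 0, and without preparation 2 they were 9 and 6. Calls of higher over all probes, 2023 in the main fit, were 662, 1596, 518 and 1447 in these settings, in that order. In these 4 lists every gene on the array was well above background on at least 1 array. Their part in the values of the endothelial markers was not tested.

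**Figure D4:**
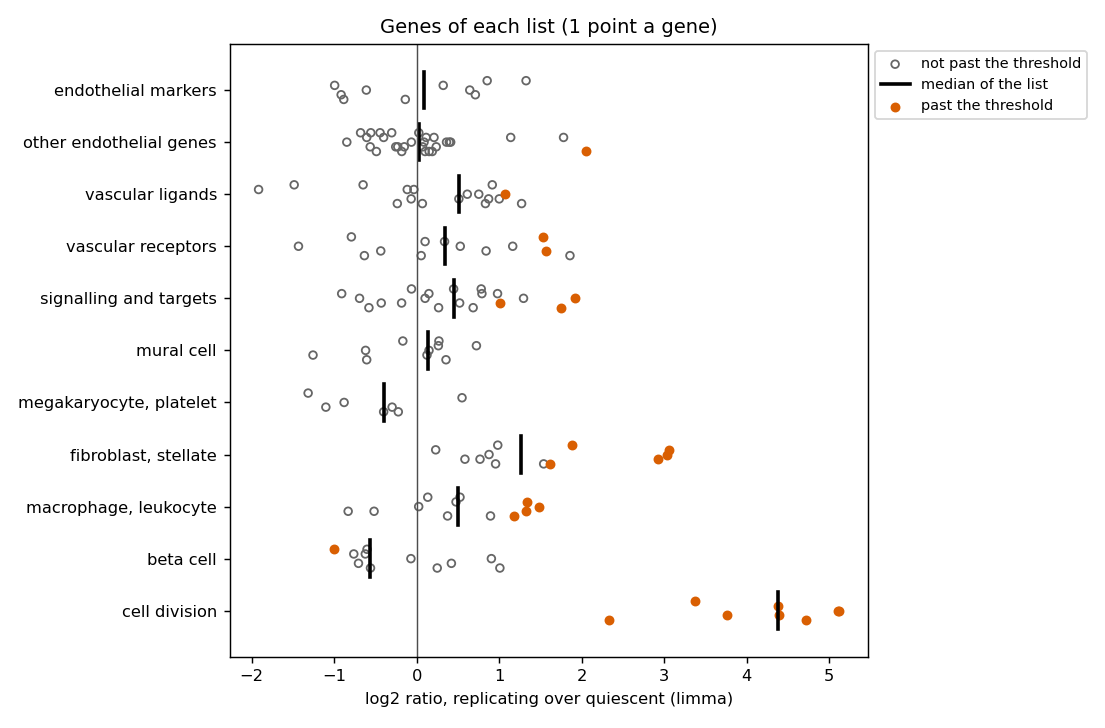
Log2 ratio of replicating over quiescent β-cells by limma (horizontal axis) for the genes of each list, 1 point a gene at its brightest probe; filled points passed an unadjusted p of at most 0.05 with a log2 ratio of at least 1 in size, and black bars are medians. The endothelial markers lie on both sides of 0 with none filled, while 5 of 12 fibroblast and stellate genes and 8 of 8 cell division genes are filled.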

How the data were processed

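RNA of 3 replicating and 3 quiescent β-cell samples was amplified by whole transcriptome amplification, labelled with Cy3 as double-stranded cDNA, which keeps no strand, and hybridised to 1-colour Agilent rat arrays on 1 slide. The authors read them with Feature Extraction 10.7.3.1, per the file headers, and deposited the spot intensity values and log2 values after normexp and quantile normalization. These log2 values, used here, differed by at most 0.000245 from normexp (offset 50) and quantile normalization computed from the intensities. Pathway and cell type lists were used beside the 10 markers, and the members and lists were chosen with earlier results of these data known.

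Control spots and spots marked as outliers were left out and the spots of a probe averaged; 43279 of 45598 probes had 1 spot. Where a gene had more than 1 probe, the brightest over all 6 arrays stood for it. Genes were names on the array that are symbols in RefSeq's gene table for GRCr8. Each probe was fitted with limma 3.58.1 (lmFit, eBayes; R 4.3.3, data.table version 1.17.8) blocked on islet preparation, the paired test the methods state, and p was adjusted by Benjamini-Hochberg over all probes. Every p from limma is two-sided. The looser threshold was an unadjusted p of at most 0.05 and a log2 ratio of at least 1 in size. The fit was tested on simulated data with 200 changed probes of 44652. The count with an adjusted p under 0.05 was 0 there, and 5.74% of the unchanged probes had an unadjusted p under 0.05 by limma.

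The pairing comes from the replicate numbers in the labels and the methods, which sorted both groups from each islet preparation; the deviations from the group mean correlated within pairs at r = 0.0561, 0.242 and 0.258. Genes named were the 10 markers and label checks (*Mki67*, *Ins1* and *Ins2*). *Amy2a3* and *Krt20* were named for the paper's qPCR. From the other endothelial and pathway lists the first 3 and those past the looser threshold were named, at most 6 a list. From the fibroblast and macrophage lists those past that threshold were named, with *C1qa* and *Fcgr3a*. Of the lists not described in the report, acinar genes had 1 of 8 called higher, duct 2 of 8, alpha 2 of 8 and delta and PP 3 of 4, with 0 lower in each, and beta cell genes 0 of 11 higher and 1 of 11 lower (*Mafa*). Over all genes these shares were 5.63% higher and 2.76% lower. The number of arrays limits the precision. The alternatives were normexp at an offset of 16, scaling to the 75th percentile, a filter on dim probes, outlier spots kept, no block, the median over probes and each preparation left out. Comparisons by probe position, the AATAAA and TTTATT counts and the alternative with the probe nearest the 3′ end were added after seeing the data.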

Additional observations from a re-analysis of the deposited data

How the results depend on the processing

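In all 12 alternatives, 0 of 10 markers had an adjusted p under 0.05. Counts of markers past the looser threshold were 0 except without preparation 3 (2 higher, 3 lower, beside 13.7% and 10.2% of all genes). Leaving out 1 preparation gave medians of the 10 from -0.35 to 0.70, 0 to 3 further endothelial genes higher and 0 to 1 lower, and 0 to 15 pathway genes higher and 0 to 2 lower. The sign turned across preparations left out for *Vegfa* (-0.069 to 0.22), *Kdr* (-0.28 to 1.59), *Tek* (-0.44 to 0.92), *Ins1* (-0.0055 to 0.42), *Nrp2* (-2.68 to 0.34) and *Esm1* (-0.56 to 0.47): below 0 without preparation 1 for *Vegfa*, below 0 without preparation 2 for *Kdr*, *Tek* and *Ins1*, above 0 without preparation 2 for *Nrp2*, and above 0 without preparation 3 for *Esm1*. Scaling to the 75th percentile in place of quantile normalization moved the median of all genes to -0.28 and that of the markers to -0.32, with *Tek* at -0.19, *Tie1* at -0.36, 2 further endothelial genes higher and 1 lower, and 4 pathway genes higher and 2 lower. On Agilent's processed signal these medians were -0.48 and -0.36, with *Tek* at -0.24, *Tie1* at -0.83, 1 further endothelial gene lower and 1 pathway gene higher. The split of called probes, 2023 higher and 1905 lower, became 1596 and 5862, and 662 and 3193. An offset of 16 gave 10 pathway genes higher. With no replicate block, 2 further endothelial genes were higher, 1879 probes were higher and 878 lower, and 99 had an adjusted p under 0.05; the block changed no call of a marker. The median over probes turned *Flt1* to 0.13. The probe nearest the 3′ end turned *Vwf* to 0.33 and *Flt1* to 0.87, and the median of the markers was 0.49. Over all probes, called counts were 518 higher and 63 lower without preparation 1, 1447 and 813 without preparation 2, and 5112 and 5633 without preparation 3; those with an adjusted p under 0.05 rose from 0 to 719 by scaling of the normexp values and to 84 without preparation 2, and 34 genes had one by the median over probes. Where not given by the construction, the cause was not tested. Dim signal limits the second *Ptprb* probe and, on 1 array each, *Tie1* and *Emcn*.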
